A study of Mus musculus with 14 samples.

Results

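Fibroblasts of the mature scar were compared with the myofibroblasts of the first week after myocardial infarction (MI). The comparison used 6 of the 14 arrays of the series, 3 of cardiac fibroblasts sorted from the infarct 4 weeks after MI and 3 from the infarct 7 days after MI. They were taken by their labels, and every gene with a single name was read (19494 genes). A further 3 arrays, of fibroblasts from uninjured hearts, gave the level against which each change was placed. All mice were C57BL/6 of the genotype TCF21-MerCreMer;R26GFP and had received tamoxifen before MI, which was made by permanent ligation of the left coronary artery. In these animals a tamoxifen-regulated Cre sits in the Tcf21 locus and switches on EGFP, which the descendants of a labelled cell keep. The sort is thus meant to take cells that expressed Tcf21 when tamoxifen was given, and their descendants. A cell of other origin that became fibroblast-like after labelling is not marked. The uninjured group had the same genotype and tamoxifen and no infarct. The labels call the 3 arrays of a group biological replicates. The p-values rest on the spread within groups, pooled over all 14 arrays of the series and not only the 6 compared.

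Resident cardiac fibroblasts keep the collagen network of the heart. After an infarct they divide, move into the necrotic area and become myofibroblasts, which carry smooth muscle α-actin fibres and secrete collagen and fibronectin, and macrophages clear the debris beside them. As the scar matures, division ends and the actin fibres are lost, while the cells stay in a dense, crosslinked matrix that has to bear load in the manner of tendon and cartilage.

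Signals are log2 values as the authors deposited them, so a difference of 1 is a 2-fold difference of signal. Background was set at 5.89, the level under which 95% of 1410 genes of odour and pheromone receptors lay. The sorted cells carried fibroblast genes at every time. The proteoglycan Dcn read 19.01, 18.83 and 18.66 in the uninjured arrays, 18.71, 18.19 and 18.30 at 7 days and 18.83, 18.65 and 18.57 at 4 weeks. Tcf21 itself, the transcription factor whose locus marks the lineage, read 11.19, 11.08 and 11.31 at 7 days and 12.27, 11.95 and 12.05 at 4 weeks, without overlap, but the rise of 0.90 ± 0.29 did not pass the test (adjusted p = 0.113). It passed without replicate 1 of uninjured (adjusted p = 0.00747). These are bulk samples, in which fewer cells of a type and less RNA per cell cannot be told apart.

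Some features of the arrays bear on all results. The arrays numbered 1 of the 5 groups stood apart from the others, with 7075 genes that differed between them and the rest within groups, and the 10 pairs among them shared 445 to 756 exactly equal values while the other 81 pairs of arrays shared 0. The labels do not say what sets them apart. Each group holds 1 of them, so the comparison was also fitted with that set as a block. The Y-linked gene Uty lay below background in 1 array of each time compared, replicate 2 at 7 days and replicate 1 at 4 weeks, and in 0 of the uninjured arrays.

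Between 7 days and 4 weeks 849 genes changed (4.36% of 19494, limma, adjusted p under 0.05). Of these 306 were higher in the 4-week scar (1.57%) and 543 were lower (2.79%), and 723 of the 849 differed by at least 2-fold, 252 upward and 471 downward. In 304 of the 306 and 542 of the 543 the 3 arrays of a group lay beyond all 3 of the other, an arrangement found in 3510 genes of the table (18%). The 4-week signal of 143 of the genes that fell lay below background, as did the 7-day signal of 54 that rose, so the folds of those genes are what the array shows and not ratios of transcripts. With the arrays numbered 1 as a block, 1630 genes passed (8.36%), 690 higher and 940 lower, among them all 849. The median size of the 849 differences was 1.44 on the log2 scale within the arrays numbered 1 and 1.57 within the others, and the choice of the genes on these arrays fixes their direction in both. The count was 537 without replicate 2 of 7 days, 521 without replicate 3 of 7 days, 485 without replicate 2 of 4 weeks and 533 without replicate 3 of 4 weeks.

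Most of the change ran toward the uninjured heart. At 7 days 1581 genes differed from uninjured fibroblasts (8.11%), 901 of them higher and 680 lower, and at 4 weeks 372 did (1.91%), 194 higher and 178 lower. These comparisons share arrays with the one between the times, so the counts that follow only place each gene. Of the 901 genes that were higher at 7 days, 436 (48.4%) had fallen by 4 weeks, 4 had risen further and 461 did not pass the test between the times. Of the 680 that were lower at 7 days, 190 (27.9%) had risen and 1 had fallen further.

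The 849 genes fell into 6 positions and a remainder. A gene had returned when it differed from the uninjured level at 7 days, moved back and no longer differed at 4 weeks, where differed means that the test was passed. This was so for 571 genes, in 292 of which the 95% interval of the 4-week difference from uninjured stayed inside 2-fold either way, and in 279 of which it was wider, so that a remaining difference of 2-fold lay within the interval. In 53 genes, 20 rising and 33 falling, the change stopped short: the 4-week level still differed from uninjured on the side of the 7-day level, with a median of 47.6% of the way back covered. Only 2 genes, Mest and Mexis, passed the uninjured level and differed from it on the other side. Another 34 genes left the uninjured level, 24 upward and 10 downward: they did not pass against uninjured at 7 days and did at 4 weeks. A gene that did not pass at 7 days need not have stood at the uninjured level then. In 5 genes, Comp, Sntg2, Cyp26a1, Fibin and Cited2, the change from uninjured to 7 days went on in the same direction. The remaining 184 genes changed between the times without differing from uninjured at either. By group means alone, with no test, the 4-week mean lay beyond the uninjured mean in 170 of the 306 genes that rose and 275 of the 543 that fell, and between the 7-day and the uninjured mean in 116 and 262. With the arrays numbered 1 as a block, 105 genes stopped short, 988 returned (687 of them inside 2-fold), 8 passed, 89 left, 11 moved further and 429 differed at neither time.

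**Figure D1:**
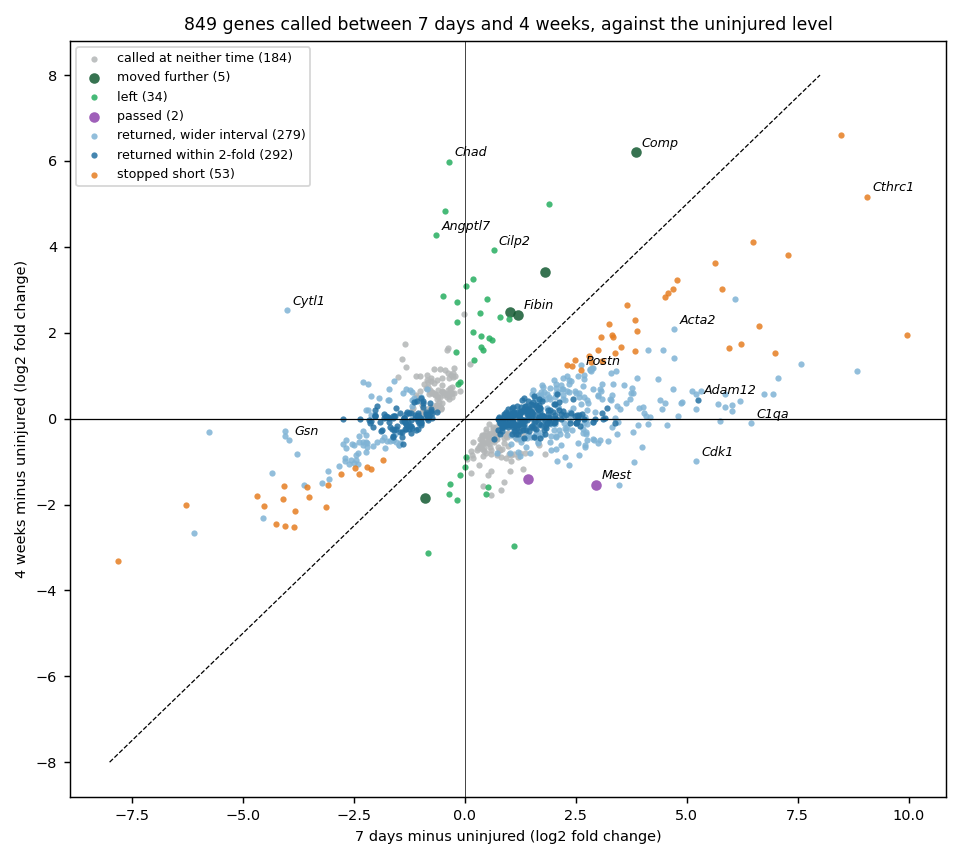
Each point is 1 of the 849 genes called between 7 days and 4 weeks, with its log2 fold change from uninjured at 7 days on the x axis and at 4 weeks on the y axis, and colours give its position against the uninjured level. The dashed diagonal marks no change between the times and the horizontal line the uninjured level: the 571 genes that returned lie about the horizontal line, the 53 that stopped short between it and the diagonal, and Chad, Comp and Cilp2 lie above both.

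Cell division genes fell together. Of 30 measured genes of the cell cycle and mitosis list 23 were lower at 4 weeks and 0 higher, against 2.79% lower over all genes, and the median of the list was -1.83 where that of all genes was -0.01. Cdk1, the kinase that drives entry into mitosis, read 10.41, 10.93 and 9.63 at 7 days and 3.96, 4.18 and 4.18 at 4 weeks, and 4.88, 5.31 and 5.13 in uninjured fibroblasts. All 4-week values lay under the background level and far under the lowest 7-day value, a difference of 74.4-fold (log2 fold change -6.22 ± 0.40, adjusted p = 1.41e-06). Mki67, the gene of the proliferation antigen Ki67, read 10.70, 8.84 and 8.66 at 7 days and 5.71, 4.59 and 3.93 at 4 weeks. It was 25.2-fold lower (adjusted p = 0.000255), or 16.04-fold without replicate 1 of 7 days, the highest array. The mitotic kinases Pbk and Plk1 fell 32.4-fold and 13.8-fold (Plk1 9.1-fold without replicate 2 of 7 days), the cyclin Ccna2 fell 11.8-fold, and the survivin gene Birc5, of the chromosomal passenger complex, fell 5.19-fold. Of the 23, 10 returned to within 2-fold of uninjured fibroblasts, 12 returned with a wider interval and 1 differed from uninjured at neither time.

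Genes of DNA replication fell in smaller number, 7 of 25 lower and 0 higher. Pclaf, a factor bound to the replication clamp, read 10.13, 10.68 and 9.68 at 7 days and 6.24, 6.79 and 6.99 at 4 weeks, without overlap, and fell 11.2-fold (log2 fold change -3.49 ± 0.31, adjusted p = 2.72e-05). Mcm5 and Mcm2, subunits of the replicative helicase, fell 4.08-fold and 3.25-fold. The call of Mcm2 was lost without replicate 2 or 3 of either time (adjusted p up to 0.0625). In both lists 0 members passed between 4 weeks and uninjured (limma).

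Promoters of the cell division genes are shown because the members moved together. Sequences are RefSeq's for build GRCm38.p6, from 250 bases before to 50 after the start, written 5′ to 3′ on the strand of the gene. Capitals mark the CHR element (TTTGAA or TTCGAA) and the CCAAT box (CCAAT), each searched on both strands. The windows are chr10:69352863-69353162 on the minus strand for Cdk1, chr7:122159185-122159484 on the plus strand for Plk1 and chr4:118437294-118437593 on the minus strand for Cdc20, the activator of the anaphase-promoting complex, which fell 6.12-fold.
Cdk1: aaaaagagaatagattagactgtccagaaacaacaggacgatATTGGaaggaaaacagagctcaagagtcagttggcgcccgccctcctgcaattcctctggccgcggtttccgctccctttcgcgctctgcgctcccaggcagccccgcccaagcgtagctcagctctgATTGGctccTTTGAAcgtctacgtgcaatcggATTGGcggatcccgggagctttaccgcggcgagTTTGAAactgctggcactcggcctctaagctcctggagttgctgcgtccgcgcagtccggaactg
Plk1: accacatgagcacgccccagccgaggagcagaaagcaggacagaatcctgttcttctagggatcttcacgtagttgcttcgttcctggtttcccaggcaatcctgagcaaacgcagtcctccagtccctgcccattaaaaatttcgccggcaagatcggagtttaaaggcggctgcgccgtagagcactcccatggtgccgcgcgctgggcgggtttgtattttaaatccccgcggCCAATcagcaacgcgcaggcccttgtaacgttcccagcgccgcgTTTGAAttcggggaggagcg
Cdc20: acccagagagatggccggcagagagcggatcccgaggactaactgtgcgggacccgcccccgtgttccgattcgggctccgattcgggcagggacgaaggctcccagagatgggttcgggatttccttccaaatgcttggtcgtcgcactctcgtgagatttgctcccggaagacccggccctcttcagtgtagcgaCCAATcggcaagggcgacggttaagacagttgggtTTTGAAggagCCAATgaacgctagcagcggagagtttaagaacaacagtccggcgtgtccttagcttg
A promoter was listed for 25 members, of which 19 held a CHR element in a window, against 19.5% of the 15683 measured genes with one, and 19 held a CCAAT box, against 42.2%. Among the 18 of them that fell, 13 held a CHR element and 13 a CCAAT box, so neither was more frequent in the members that fell. For the replication genes the E2F core (GCGGGAA or GCGCGAA, both strands) was in the windows of 12 of 20 members and of 9.23% of all genes. A match of letters is a description and not a binding site. Cdk1, Mki67 and Ccna2 had been picked by the study from these samples.

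Macrophage genes fell as well, although the cells were sorted by EGFP. Of the 12 largest falls 8 are genes known from macrophages and other myeloid cells (Ms4a7, C1qa, Mmp12, Lyz2, Mpeg1, Tyrobp, Ctss and Fcgr3), and Lcp1 is a leukocyte actin-bundling protein. Of 29 measured macrophage markers 22 were lower at 4 weeks and 0 higher, with a median of -2.62. C1qa, a complement subunit made by macrophages, read 13.73, 11.86 and 13.60 at 7 days and 5.14, 7.03 and 7.32 at 4 weeks, where replicate 2 was the lowest of the 7-day arrays, and 5.86, 7.06 and 6.91 in uninjured fibroblasts. It fell 94.9-fold (log2 fold change -6.57 ± 0.71, adjusted p = 0.000134), or 144-fold without replicate 2 of 7 days and 59.4-fold without replicate 1 of 4 weeks. The receptor Csf1r fell 25-fold, or 12.15-fold without replicate 1 of 7 days and 40.4-fold without replicate 2. The lysozyme gene Lyz2 fell 68.6-fold, or 117.5-fold without replicate 2 of 7 days. Adgre1 and Mrc1, which also define macrophages, did not pass. Adgre1 read 8.57, 6.3 and 7.23 at 7 days and 5.59, 5.89 and 5.69 at 4 weeks (adjusted p = 0.0882). Mrc1 read 10.94, 7.84 and 9.34 at 7 days and 6.35, 8.15 and 7.37 at 4 weeks (adjusted p = 0.166). Adgre1 passed with the arrays numbered 1 as a block (adjusted p = 0.0222) and without replicate 2 of 7 days (adjusted p = 0.0248). The signal summed over the 29 markers on the linear scale was 136700, 27240 and 88790 in the 7-day arrays, fell to 2507, 3779 and 4011 in those of 4 weeks, and compared with 2163, 2916 and 2601 in uninjured fibroblasts. Of the 22, 8 returned inside 2-fold of uninjured, 12 returned with a wider interval and 2 differed from uninjured at neither time.

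The summed level of these markers did not overlap between 7 days and 4 weeks, so it moved with every change described here, and its part in them was not tested. When the mean log2 level of the 29 markers was added to the fit as a covariate, 2 genes passed at an adjusted p under 0.05 and 903 at an unadjusted one. The standard errors were then 2.65 times as large at the median gene, and 792 of the 849 genes kept their sign, with a median size of 1.36 against 1.54 on the log2 scale. Without replicate 2 of 7 days, the array with the lowest marker level, 537 genes passed in place of 849. The falls of the cell cycle list then numbered 18 in place of 23, of the fibrillar collagens 6 as before, of the contractile genes 3 in place of 11 and of the macrophage markers 23 in place of 22, and the rises of the quiescent fibroblast list 7 in place of 15. Class II histocompatibility genes, which present antigen, fell in 4 of 8 members, with H2-Aa down 4.54-fold. H2-Aa kept its call in every limma fit with 1 array left out. The calls of H2-Ab1, H2-DMa and H2-DMb1 were lost in 3, 5 and 2 of those fits (adjusted p up to 0.0681, 0.105 and 0.068). Markers of lymphocytes fell in 0 of 13, of endothelial cells in 0 of 14, of the epicardium in 0 of 10 and of Schwann cells in 0 of 8, and 0 of these rose (limma). Above background at either time were 13 of the endothelial markers, but only 3 of the lymphocyte, 3 of the epicardium and 3 of the Schwann cell markers. Markers below background at both times could not show a fall. With the arrays numbered 1 as a block 1 lymphocyte marker fell, and 1 endothelial and 2 Schwann cell markers rose. Neutrophil markers fell in 2 of 12, of which 3 were above background at either time. Of 16 cardiomyocyte markers 1 rose, the natriuretic peptide gene Nppa, which read 6.09, 6.16 and 5.96 at 7 days and 7.03, 8.33 and 8.98 at 4 weeks (adjusted p = 0.0276). That call was lost without any array of 7 days or replicate 2 or 3 of 4 weeks (adjusted p up to 0.122).

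**Figure D2:**
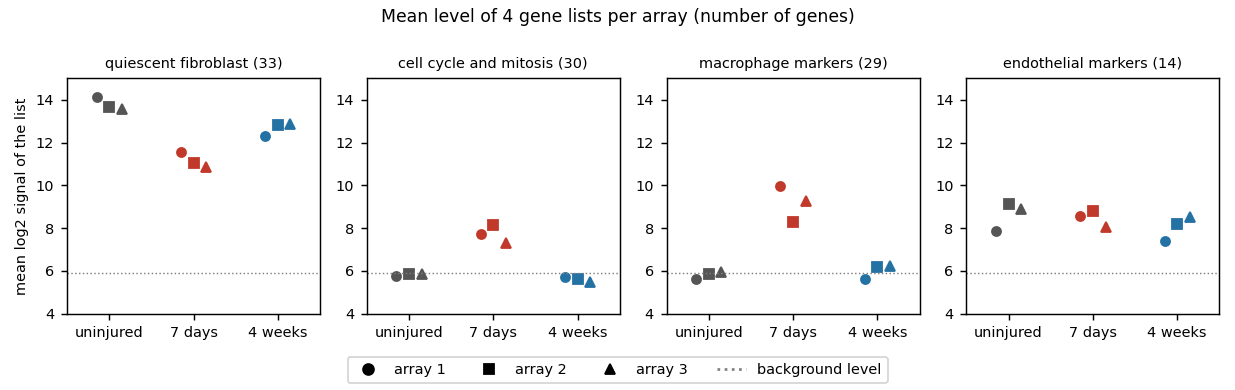
The mean log2 signal of 4 gene lists is plotted for each array of the uninjured, 7-day and 4-week groups, with the marker shape giving the replicate number and the dotted line the background level. The macrophage and cell cycle lists are high in the 3 arrays of 7 days and near background in the other 6, and the quiescent fibroblast list is lowest at 7 days and lies between the others at 4 weeks. The endothelial markers, the fourth list, are shown for comparison.

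The contractile apparatus of the myofibroblast was lower in the 4-week scar, in part still above the uninjured level. Of 28 contractile cytoskeleton genes 11 fell and 0 rose (median -1.01). Acta2, smooth muscle α-actin, read 14.56, 15.54 and 15.51 at 7 days and 13.35, 12.01 and 12.33 at 4 weeks, against 8.82, 11.54 and 11.08 in uninjured fibroblasts. The times did not overlap, and the fall was 6.22-fold (log2 fold change -2.64 ± 0.57, adjusted p = 0.0161). The call was lost without replicate 2 or 3 of either time (adjusted p up to 0.0846). At 4 weeks Acta2 was 4.24-fold above uninjured, which did not pass (adjusted p = 0.0977) in the fit without block and passed with the arrays numbered 1 as a block (adjusted p = 0.0482). Its enteric relative Actg2 read 7.09, 8.78 and 10.03 at 7 days and 4.39, 4.11 and 4.99 at 4 weeks, and 3.42, 5.42 and 4.55 in uninjured fibroblasts, a fall of 17.6-fold (log2 fold change -4.14 ± 0.63, adjusted p = 0.00173), or 30.04-fold without replicate 1 and 10.8-fold without replicate 3 of 7 days, which left a log2 difference from uninjured of 0.03 (95% interval -1.32 to 1.38).

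Palld, the gene of palladin, an actin crosslinker of stress fibres, stopped short. It read 14.22, 13.93 and 14.62 at 7 days and 12.65, 11.57 and 11.45 at 4 weeks, and 7.00, 8.17 and 8.13 in uninjured fibroblasts. It fell 5.17-fold (log2 fold change -2.37 ± 0.36, adjusted p = 0.00176) and stayed 17.4-fold above uninjured (adjusted p = 3.92e-05). Actn1, α-actinin, and Tagln, transgelin, also stopped short, 8.08-fold and 4.11-fold above uninjured after falls of 3.18-fold and 3.55-fold. These calls were less firm. That of Actn1 was lost without replicate 2 or 3 of either time (adjusted p up to 0.101), and that of Tagln without those arrays or replicate 1 of 4 weeks (adjusted p up to 0.189). The tropomyosin Tpm2 returned with a wider interval after a fall of 6.79-fold. Without replicate 2 of 7 days the list had 3 members that fell, without replicate 3 of 7 days 5, and 4 without either replicate 2 or replicate 3 of 4 weeks. With the arrays numbered 1 as a block it had 16, and 1 rose. Pericyte and smooth muscle markers fell in 1 of 12 (Mcam, 6.92-fold), or in 3 with the block.

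Promoters of 2 contractile genes that fell and hold a CArG box, the element bound by serum response factor, are shown with the box in capitals. Myl9 codes a myosin light chain and its window is chr2:156775214-156775513, plus strand. Cnn2 codes a calponin and its window is chr10:79988350-79988649, plus strand.
Myl9: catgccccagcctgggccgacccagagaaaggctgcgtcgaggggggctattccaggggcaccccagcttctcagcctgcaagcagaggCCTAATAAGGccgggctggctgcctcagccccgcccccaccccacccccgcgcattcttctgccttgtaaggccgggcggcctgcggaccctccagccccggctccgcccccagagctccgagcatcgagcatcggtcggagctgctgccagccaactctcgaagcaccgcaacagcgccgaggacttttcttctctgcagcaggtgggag
Cnn2: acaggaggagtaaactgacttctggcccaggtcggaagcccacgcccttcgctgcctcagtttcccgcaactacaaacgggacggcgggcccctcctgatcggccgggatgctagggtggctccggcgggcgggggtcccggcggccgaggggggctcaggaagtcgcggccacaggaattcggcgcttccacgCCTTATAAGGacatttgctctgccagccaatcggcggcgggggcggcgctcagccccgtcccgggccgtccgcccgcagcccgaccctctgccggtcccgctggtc
A promoter was listed for 25 members, of which 4 held the box on either strand, against 1.7% of all genes. Among the 9 members that fell and had a promoter listed, only the 2 shown held it. The other holders, Ldb3 and Vcl, did not pass. Myl9 fell 2.18-fold and its call was lost without replicate 2 or 3 of 7 days or any array of 4 weeks (adjusted p up to 0.158). Cnn2 fell 2.2-fold and its call was lost without those arrays or replicate 2 of uninjured (adjusted p up to 0.211).

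**Figure D3:**
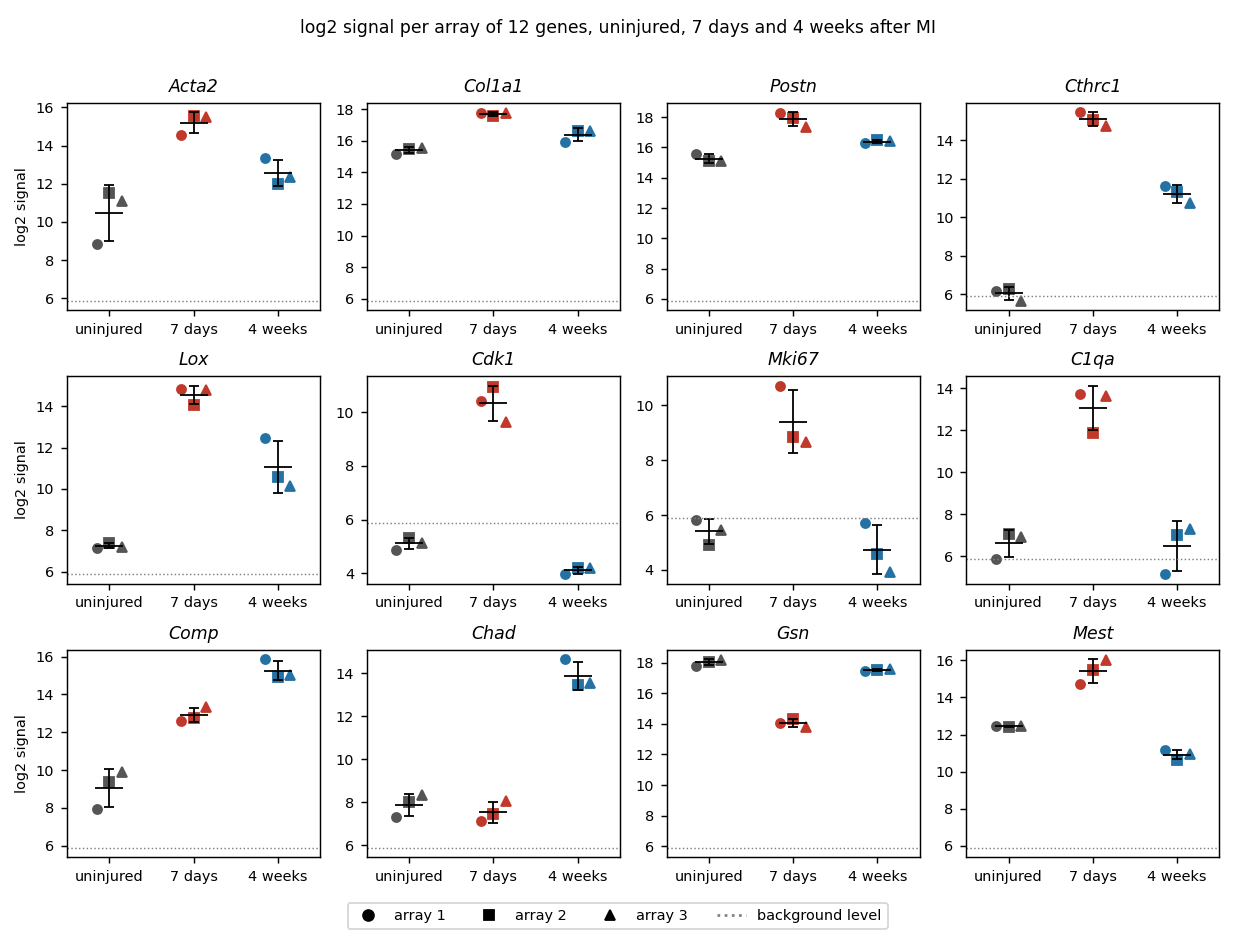
The log2 signal of 12 genes is shown per array, with the marker shape for the replicate number, black bars for the mean and SD of 3 arrays, and a dotted line at background. Acta2, Col1a1, Postn, Cthrc1 and Lox are highest at 7 days and lie between that level and the uninjured one at 4 weeks, while at 4 weeks Mki67 and C1qa overlap the uninjured values and Cdk1 lies below background, as it does in uninjured fibroblasts, Comp and Chad are highest at 4 weeks, and Mest is lowest there.

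Fibrillar collagen genes were lower in the scar than at 7 days, in part still above the uninjured level. Of 11 genes 6 fell and 0 rose (median -1.32), and of the 6, 1 stopped short, 1 returned inside 2-fold and 4 returned with a wider interval. Col1a1, of the main scar collagen, read 17.79, 17.57 and 17.75 at 7 days and 15.92, 16.61 and 16.65 at 4 weeks, and 15.19, 15.49 and 15.55 in uninjured fibroblasts, with no overlap among the groups. It fell 2.49-fold (log2 fold change -1.32 ± 0.23, adjusted p = 0.00519), which left it 1.98-fold above uninjured (adjusted p = 0.0507, or 0.0137 with the block). Its partner chain Col1a2 stopped short, 2.53-fold above uninjured (adjusted p = 0.0103), after a fall of 3.36-fold. Col3a1 fell 2.7-fold and did not pass against uninjured at 4 weeks (1.87-fold higher, adjusted p = 0.119). The fibril-nucleating chains Col5a1 and Col5a2 fell 4.16-fold and 5.11-fold, Col5a1 to within 2-fold of uninjured. Col5a2 stayed 1.61-fold above it (adjusted p = 0.119, or 0.0436 with the block). Col11a1 fell 9.74-fold (17.7-fold without replicate 1 of 4 weeks), a call lost when replicate 2 or 3 of uninjured or 4 weeks, or replicate 1 or 3 of 7 days, was left out (adjusted p up to 0.176).

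Enzymes that modify and crosslink collagen fell in 10 of 23 members and rose in 1. Lox, lysyl oxidase, which starts the crosslinks, read 14.83, 14.04 and 14.76 at 7 days and 12.48, 10.58 and 10.13 at 4 weeks, against 7.17, 7.39 and 7.2 in uninjured fibroblasts. Replicate 1 was the highest of the 4-week arrays, and the groups did not overlap. It fell 11.1-fold (log2 fold change -3.48 ± 0.46, adjusted p = 0.000558), or 18.2-fold without that array, and remained 14.1-fold above uninjured (adjusted p = 0.000443). P4ha3, a prolyl hydroxylase subunit, fell 19.6-fold and stopped short as well (3.14-fold above uninjured, adjusted p = 0.0269), as did Loxl3 (3.71-fold above). P3h1, a prolyl 3-hydroxylase, fell 3.61-fold to the uninjured level. Plod1, a lysyl hydroxylase, fell 3.5-fold, and its 4-week mean was 2.33-fold below uninjured (adjusted p = 0.0716, or 0.0308 with the block). The member that rose was Pcolce2, which enhances procollagen processing, by 2.79-fold.

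Matricellular proteins, which tune how cells hold the matrix, fell in 8 of 25 and rose in 2 (4 with the block), and several members stayed above the uninjured level. Cthrc1, a secreted protein of activated fibroblasts, read 15.47, 15.05 and 14.76 at 7 days and 11.62, 11.30 and 10.73 at 4 weeks, against 6.17, 6.29 and 5.68 in uninjured fibroblasts. It fell 14.7-fold (log2 fold change -3.88 ± 0.28, adjusted p = 3.9e-06), with no overlap, and stayed 36-fold above uninjured (adjusted p = 4.84e-07). Tnc, tenascin C, an anti-adhesive protein of healing tissue, read 15.91, 16.23 and 15.71 at 7 days and 10.71, 11.92 and 11.82 at 4 weeks, fell 22.1-fold (log2 fold change -4.46 ± 0.36, adjusted p = 1.3e-05), and stayed 4.44-fold above. Fn1, fibronectin, fell 2.91-fold and Postn, periostin, the marker of activated cardiac fibroblasts, 2.8-fold. They stayed 4.9-fold and 2.18-fold above uninjured (adjusted p = 8.2e-05 and 0.0245). Postn read 18.29, 17.97 and 17.37 at 7 days and 16.30, 16.46 and 16.41 at 4 weeks, and 15.59, 15.13 and 15.09 in uninjured fibroblasts, so the 3 groups did not overlap. Ccn4, a Wnt-induced signalling protein, fell 4.64-fold and returned with a wider interval. Tnxb, tenascin X, of loose connective tissue, rose 4.19-fold and was still 2.93-fold below uninjured (adjusted p = 0.0649, or 0.0375 with the block).

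A few genes that fell belong to none of the lists and were taken singly, so they stand for no group, and Cdh2 and Cemip had been picked by the study from these samples. Cdh2, N-cadherin, read 13.69, 13.65 and 13.89 at 7 days and 12.26, 11.47 and 11.44 at 4 weeks, and 7.89, 8.42 and 8.02 in uninjured fibroblasts. It fell 4.05-fold (log2 fold change -2.02 ± 0.25, adjusted p = 0.000323) and remained 12.2-fold above uninjured. The P-cadherin gene Cdh3 fell 44.4-fold and stopped short at 2.87-fold above uninjured. Cemip, which takes part in the breakdown of hyaluronan, read 11.13, 11.68 and 12.27 at 7 days and 5.98, 5.06 and 5.11 at 4 weeks and fell 79.3-fold (log2 fold change -6.31 ± 0.41, adjusted p = 1.41e-06), to a level that did not pass against uninjured fibroblasts (3.71, 4.40 and 4.25, adjusted p = 0.199), which lay below background. Kif26b, of the kinesin family, fell 22.1-fold and stopped short, 3.36-fold above uninjured.

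Of 37 metalloproteinases and their inhibitors 9 fell and 1 rose, and with the arrays numbered 1 as a block 14 fell and 2 rose. Adam12, a transmembrane metalloproteinase of activated fibroblasts, read 10.32, 9.59 and 9.80 at 7 days and 4.61, 5.30 and 5.37 at 4 weeks, and 4.44, 4.62 and 4.91 in uninjured fibroblasts. It fell 28.1-fold (log2 fold change -4.81 ± 0.25, adjusted p = 2.24e-07) and returned, with the 95% interval of its 4-week difference from uninjured at -0.10 to 0.98 on the log2 scale. Mmp14, the membrane collagenase, fell 4.85-fold, to a mean 1.74-fold below uninjured that differed from it only with the block (adjusted p = 0.119, or 0.049). Mmp12, the elastase of macrophages, read 13.68, 9.09 and 12.04 at 7 days and 4.41, 6.06 and 5.23 at 4 weeks, with replicate 2 the lowest of the 7-day arrays as for the macrophage markers. It fell 82.5-fold (adjusted p = 0.00596), or 40.1-fold without replicate 1 of 7 days and 197-fold without replicate 2. The member that rose was an inhibitor. Timp3, which is held in the matrix, read 8.20, 8.87 and 7.74 at 7 days and 13.27, 10.70 and 10.85 at 4 weeks, against 8.77, 9.14 and 8.38 in uninjured fibroblasts. Replicate 1 was well above the other 4-week arrays. It rose 10.1-fold (log2 fold change 3.34 ± 0.57, adjusted p = 0.00404), or 5.69-fold without that array, and left the uninjured level by 7.19-fold (adjusted p = 0.0186). Timp1, induced in injury, read 14.14, 14.37 and 14.19 at 7 days and 12.57, 13.75 and 13.62 at 4 weeks. Its decrease did not pass (adjusted p = 0.148), and at 4 weeks it was 3.99-fold above uninjured (adjusted p = 0.0035).

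Some cartilage matrix genes, and 1 gene of the tendon list, were among those that rose away from the uninjured level. Of 28 cartilage matrix genes 4 rose and 1 fell (2 with the arrays numbered 1 as a block), and of 20 tendon and ligament genes 4 rose and 1 fell, against 1.57% higher over all genes. Of the cartilage genes called, 2 left the uninjured level, 1 moved further and 2 returned with a wider interval. Of the tendon genes called, 1 left it, 1 stopped short, 1 returned inside 2-fold and 2 returned with a wider interval. Chad, Cilp2 and Comp are genes the study itself picked from these samples, so their direction is not independent evidence. Chad, chondroadherin, a leucine-rich protein of cartilage that binds collagen, read 7.12, 7.45 and 8.07 at 7 days and 14.65, 13.45 and 13.54 at 4 weeks. The uninjured arrays read 7.32, 8.03 and 8.33, so the 7-day and uninjured values overlapped and all 4-week values lay above both. The rise was 80.7-fold (log2 fold change 6.33 ± 0.36, adjusted p = 4.75e-07) from 7 days and 63.3-fold from uninjured (adjusted p = 9.93e-07). Cilp2, a glycoprotein of the cartilage interlayer, read 6.71, 6.46 and 7.56 at 7 days and 9.37, 10.09 and 11.12 at 4 weeks and rose 9.72-fold (log2 fold change 3.28 ± 0.37, adjusted p = 0.000201), to 15.2-fold above uninjured.

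Comp, the cartilage oligomeric matrix protein, which organises collagen fibrils, had risen by 7 days and rose again. It read 7.92, 9.37 and 9.88 in uninjured fibroblasts, 12.61, 12.77 and 13.33 at 7 days and 15.85, 14.92 and 15.02 at 4 weeks, with no overlap among the 3 groups. The second step was 5.13-fold (log2 fold change 2.36 ± 0.44, adjusted p = 0.00649), and the 4-week level was 73.8-fold above uninjured (adjusted p = 4.33e-06). Cytl1, a cytokine-like protein known from cartilage, had the largest rise, 92.2-fold (log2 fold change 6.53 ± 0.69, adjusted p = 0.000117), from 8.83, 10.24 and 10.04 to 16.91, 15.89 and 15.88. It had fallen at 7 days, and the 4-week mean was 5.75-fold above the uninjured arrays (12.22, 14.42 and 14.47), a difference that did not pass (adjusted p = 0.0997), so that it counts as returned with a wide interval although all 4-week arrays lay above all uninjured ones. Sox9, the transcription factor of cartilage formation, read 11.18, 10.96 and 11.60 at 7 days and 12.20, 11.65 and 11.77 at 4 weeks and did not pass (adjusted p = 0.151). Acan, aggrecan, fell 7.69-fold (3.16-fold without replicate 3 and 12.96-fold without replicate 1 of 7 days), a call lost without replicate 2 or 3 of uninjured or any array of 4 weeks (adjusted p up to 0.153).

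On the tendon side Angptl7, a secreted angiopoietin-like protein, read 11.50, 8.53 and 10.11 at 7 days and 16.04, 14.35 and 14.46 at 4 weeks and rose 29.97-fold (log2 fold change 4.91 ± 0.65, adjusted p = 0.000576), or 49.6-fold without replicate 1 and 17.7-fold without replicate 2 of 7 days, to 19.3-fold above uninjured. Other genes of tendon had reached a high level by 7 days and did not pass the test between the times. Fmod, fibromodulin, which regulates fibril width, read 7.39, 8.99 and 8.71 in uninjured fibroblasts, 12.81, 11.61 and 13.45 at 7 days and 14.29, 13.82 and 13.82 at 4 weeks (adjusted p between the times = 0.201), 49-fold above uninjured at 4 weeks (adjusted p = 5.51e-05). Tnmd, tenomodulin, a membrane protein of tendon cells, read 8.50, 8.52 and 9.59 at 7 days and 9.17, 10.95 and 10.78 at 4 weeks and was 20.04-fold above uninjured at 4 weeks (adjusted p = 0.000141). Its rise between the times passed with the arrays numbered 1 as a block (adjusted p = 0.0136) and without replicate 1 of 4 weeks (adjusted p = 0.00819). Thbs4, a thrombospondin of tendon, was 25.6-fold above uninjured at 4 weeks (adjusted p = 0.000167), with a log2 difference between the times of -0.31 (adjusted p = 0.918). The growth factor Gdf6 fell 7.27-fold and returned with a wider interval. Of 17 bone genes 0 passed in either direction in limma (median 0.08), 5 of them above background at either time, and with the arrays numbered 1 as a block 2 rose.

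**Figure D4:**
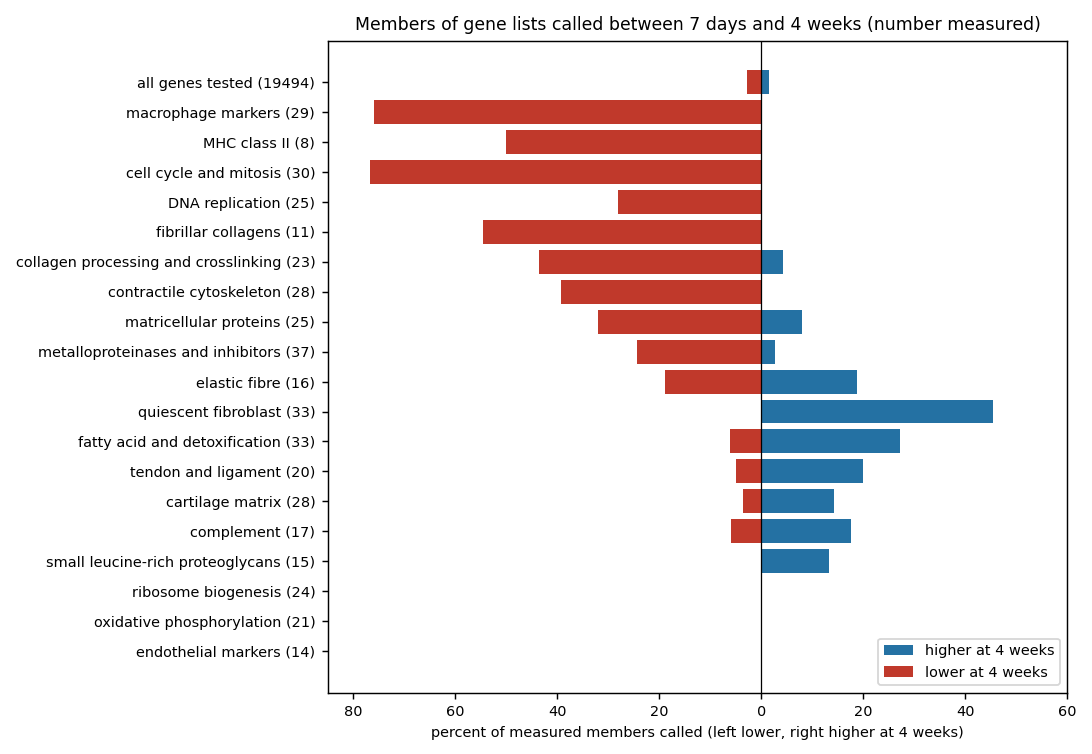
Bars give the share of measured members of 19 gene lists that were called lower (left) or higher (right) at 4 weeks than at 7 days, with the number measured in brackets and all genes tested in the top row. Shares of lower members are largest in the cell cycle list (76.7%) and the macrophage markers (75.9%), and of higher members in the quiescent fibroblast list (45.5%), against 2.79% and 1.57% over all genes.

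Genes of the resting fibroblast rose, and some of them stopped short. Of 33 measured genes known from fibroblasts of the uninjured heart or from quiescent fibroblasts elsewhere, 15 rose and 0 fell (median 1.10). Of the 15, 6 stopped short, 1 returned inside 2-fold, 7 returned with a wider interval and 1 differed from uninjured at neither time. At 7 days 24 of the 33 had been below uninjured, and at 4 weeks 11 still were. The list was written with results of these arrays in view, so its direction at 7 days is not independent evidence. The same holds for the rise, which is measured from those 7-day arrays. Gsn, gelsolin, which severs actin filaments, read 14.08, 14.30 and 13.78 at 7 days and 17.47, 17.54 and 17.57 at 4 weeks, against 17.81, 18.06 and 18.19 in uninjured fibroblasts. The groups did not overlap and the rise was 11.1-fold (log2 fold change 3.47 ± 0.30, adjusted p = 2.1e-05), 87.5% of the way back. Vit, vitrin, an extracellular matrix protein, rose 43.6-fold (log2 fold change 5.45 ± 0.57, adjusted p = 0.000117), from 9.20, 8.61 and 6.86 to 14.32, 13.26 and 13.43, values that overlap the uninjured arrays (14.32, 13.78 and 13.84). Without replicate 3 of 7 days the rise was 27.2-fold. Penk, the gene of the enkephalin precursor, rose 13.4-fold and also reached the uninjured range.

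Ces1d, a carboxylesterase of lipid metabolism, stopped short. It read 14.08, 13.98 and 13.79 in uninjured fibroblasts, 6.26, 5.60 and 6.58 at 7 days and 9.80, 10.90 and 11.19 at 4 weeks. The rise of 22.4-fold (log2 fold change 4.49 ± 0.42, adjusted p = 4.68e-05) left it 9.98-fold below uninjured (adjusted p = 0.000612). Gsta3, a glutathione transferase, rose 19.2-fold and stayed 4.02-fold below, and Clec3b, tetranectin, rose 5.67-fold and stayed 2.98-fold below (adjusted p = 0.0291). Hsd11b1, which regenerates active glucocorticoid, rose 5.66-fold (8.86-fold without replicate 1 of 4 weeks) and stayed 4.09-fold below. Inmt, a methyltransferase, read 6.87, 7.05 and 6.14 at 7 days and 7.10, 11.49 and 11.81 at 4 weeks. Replicate 1 of 4 weeks lay at the 7-day level and the other arrays well above it. Its call was lost without replicate 2 or 3 of any of the 3 groups or replicate 1 of 7 days (adjusted p up to 0.176). Without replicate 2 or 3 of 7 days the list had 7 and 8 members that rose, and 7 without either replicate 2 or replicate 3 of 4 weeks.

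The related list of fatty acid and detoxification genes shares Ces1d, Gsta3 and Inmt with the former and had 9 of 33 members higher and 2 lower. Cyp27a1, a mitochondrial sterol hydroxylase, rose 8.43-fold (log2 fold change 3.08 ± 0.38, adjusted p = 0.000324), from 8.64, 7.43 and 8.47 to 10.45, 11.80 and 11.52. Gstm1, another glutathione transferase, rose 7.8-fold. Of the 11 members called, 3 stopped short, 5 returned and 3 differed from uninjured at neither time. Some complement genes rose too. C7, of the terminal complex, rose 12.5-fold (log2 fold change 3.64 ± 0.63, adjusted p = 0.00417), or 20.9-fold without replicate 1 of 4 weeks. C7 returned with a wider interval. C4b is cleaved early in the cascade. In uninjured fibroblasts it read 10.30, 11.03 and 10.97. It read 10.83, 10.46 and 10.49 at 7 days and 12.75, 13.09 and 13.19 at 4 weeks. It rose 5.35-fold (log2 fold change 2.42 ± 0.29, adjusted p = 0.00026) and left the uninjured level upward by 4.74-fold (adjusted p = 0.000718). Of 17 complement genes 3 rose and 1 fell, and with the arrays numbered 1 as a block 5 rose and 2 fell.

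Elastic fibre genes moved both ways, 3 of 16 higher and 3 lower (5 lower with the arrays numbered 1 as a block). The microfibril genes Mfap2 and Fbn2 fell 10.7-fold and 5.47-fold to levels that did not pass against uninjured, and Vit rose as above. Fbln1 and Ltbp4 rose 2.98-fold and 1.9-fold, and each lost its call in 8 of the limma fits with 1 array left out (adjusted p up to 0.16 and 0.142). Ltbp2, which binds fibrillin microfibrils, stayed high, with 15.17, 15.06 and 14.80 at 7 days and 14.53, 14.06 and 14.14 at 4 weeks against 8.53, 8.53 and 8.75 in uninjured fibroblasts (adjusted p between the times = 0.101, or 0.0467 with the arrays numbered 1 as a block). Basement membrane genes fell in 3 of 18 (16.7%, against 2.79% over all genes) and rose in 0 in limma, and with that block 7 fell and 1 rose. Lamb1, a laminin chain, read 15.79, 14.35 and 14.09 in uninjured fibroblasts, 14.06, 14.20 and 13.49 at 7 days and 10.54, 11.89 and 12.44 at 4 weeks. It left the uninjured level downward by 8.68-fold (adjusted p = 0.00235), after a fall of 4.9-fold from 7 days whose call was lost without replicate 2 of 7 days (adjusted p up to 0.0576). Lama4, an α chain of laminin, fell 2.31-fold, a call lost without replicate 1 or 2 of 7 days or replicate 2 or 3 of 4 weeks (adjusted p up to 0.103).

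Signalling genes are set against all genes, of which 1.57% rose and 2.79% fell. Of 25 genes of the TGF-β and activin pathway 2 rose (8%) and 0 fell in limma, and with the arrays numbered 1 as a block 1 fell. Tgfbr3, the coreceptor betaglycan, rose 3.95-fold (log2 fold change 1.98 ± 0.34, adjusted p = 0.00431), from 12.63, 11.64 and 11.60 to 13.88, 14.07 and 13.87, and the ligand Tgfb3 read 17.52, 17.26 and 17.57 at 7 days and 17.04, 16.78 and 16.89 at 4 weeks (adjusted p = 0.226). In the BMP pathway 3 of 29 rose (10.3%) and 2 fell (6.9%), and with the block 8 rose. The target gene Id2, an inhibitor of basic helix-loop-helix factors, rose 3.45-fold (log2 fold change 1.79 ± 0.35, adjusted p = 0.0089) to the uninjured level. Chrdl1, an extracellular BMP antagonist, rose 8.36-fold (4.34-fold without replicate 1 of 4 weeks) and left the uninjured level, a call lost without replicate 2 of 7 days (adjusted p up to 0.0825). Of 51 Wnt genes 1 rose (1.96%) and 2 fell (3.92%), shares close to those of all genes. Fzd7, a receptor, rose 2.51-fold, Sfrp1, a secreted inhibitor, fell 3.61-fold and stopped short, and Ror2, a receptor for Wnt5a, read 9.08, 9.10 and 8.57 at 7 days and 5.99, 7.46 and 6.89 at 4 weeks and left the uninjured level downward (3.04-fold, adjusted p = 0.025). Of 36 growth factors and receptors 2 rose (5.56%) and 5 fell (13.9%). Igfbp6, a binding protein for IGF2, rose 4.41-fold, and Nrg1, neuregulin, fell 3.3-fold. Of 29 chemokines and cytokines 1 passed (3.45%; 2 fell with the block), Ackr3, a scavenging receptor for CXCL12, which rose 3.48-fold and stopped short, a call lost without replicate 2 or 3 of either time (adjusted p up to 0.127).

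Apoptosis inhibitors rose in 3 of 19 (15.8%, against 1.57% over all genes) and fell in 1, with Faim2, Bag5 and Bcl2l1 taken into the list because the study had picked them from these samples. The survivin gene Birc5 is not counted in these numbers and fell 5.19-fold, as given with the cell division genes. Faim2, which blocks death signalling from the Fas receptor, read 7.12, 7.89 and 7.44 at 7 days and 11.01, 10.19 and 10.47 at 4 weeks, and 6.46, 7.64 and 7.79 in uninjured fibroblasts. The 7-day and uninjured values overlapped, all 4-week values were higher, and the rise was 8.41-fold (log2 fold change 3.07 ± 0.39, adjusted p = 0.000406), 9.6-fold above uninjured (adjusted p = 0.000425). Bcl2l1, an anti-apoptotic member of the BCL2 family, read 9.24, 9.31 and 8.91 at 7 days and 9.88, 10.22 and 10.18 at 4 weeks and rose 1.92-fold, without passing against uninjured. This call was lost without any array of 7 days or replicate 2 or 3 of 4 weeks (adjusted p up to 0.15). Bag5, a cochaperone of HSP70, read 10.94, 11.61 and 10.85 at 7 days and 11.26, 11.55 and 11.64 at 4 weeks and did not pass (adjusted p = 0.704). The member that fell was Bcl2a1b (39.2-fold, 25.7-fold without replicate 1 and 71.7-fold without replicate 2 of 7 days), a BCL2 relative of leukocytes whose 7-day values of 14.30, 11.35 and 13.62 were, like those of the macrophage markers, lowest in replicate 2.

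The largest fall was that of the row annotated as Mir675, the microRNA gene inside the imprinted noncoding RNA H19, whose transcript the same row lists. It read 5.16, 6.27 and 5.96 in uninjured fibroblasts, 15.42, 15.47 and 16.36 at 7 days and 8.62, 6.89 and 7.72 at 4 weeks. The fall was 257-fold (log2 fold change -8.0 ± 0.41, adjusted p = 2.24e-07), and it stopped short of the uninjured level by 3.85-fold (adjusted p = 0.0262). The mature microRNAs were not measured as such. They are given to identify the locus, with the seed (bases 2 to 8) in capitals, from RefSeq at build GRCm38.p6, chr7:142577112-142577133 for the 5p arm and chr7:142577078-142577099 for the 3p arm, minus strand.
mmu-miR-675-5p: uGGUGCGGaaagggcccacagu
mmu-miR-675-3p: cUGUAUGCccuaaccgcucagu

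Mest, an imprinted gene of the mesoderm, passed the uninjured level. It read 12.45, 12.43 and 12.48 in uninjured fibroblasts, 14.72, 15.49 and 16.001 at 7 days and 11.14, 10.65 and 10.95 at 4 weeks, and the 3 groups did not overlap. The fall was 22.5-fold (log2 fold change -4.49 ± 0.30, adjusted p = 1.72e-06), to 2.9-fold below uninjured (adjusted p = 0.0142). Mexis, a noncoding RNA known for its part in cholesterol efflux of macrophages, read 7.56, 7.80 and 7.94 in uninjured fibroblasts, 9.37, 8.91 and 9.30 at 7 days and 5.45, 6.64 and 6.96 at 4 weeks. It fell 7.19-fold, to 2.67-fold below uninjured (adjusted p = 0.0404). With any array of uninjured, 7 days or 4 weeks left out, 0 to 3 genes passed the uninjured level, with 0 when replicate 2 or replicate 3 of uninjured was left out and 1 without replicate 3 of 7 days or replicate 2 of 4 weeks.

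Uts2r, the receptor of the vasoactive peptide urotensin 2, left the uninjured level, with 5.02, 4.55 and 4.61 at 7 days and 10.21, 9.64 and 10.18 at 4 weeks against 4.66, 5.68 and 5.20 in uninjured fibroblasts, all of which and all 7-day values were below background. It rose 38.9-fold (log2 fold change 5.28 ± 0.27, adjusted p = 2.24e-07). Slc38a4, an imprinted amino acid transporter, left it downward, with 7.53, 9.38 and 8.65 in uninjured fibroblasts, 9.65, 9.28 and 9.94 at 7 days and 5.58, 5.54 and 5.57 at 4 weeks, 7.77-fold below uninjured at 4 weeks (adjusted p = 0.00181). Besides Comp, 4 genes moved further in the direction taken by 7 days. Cyp26a1, which degrades retinoic acid, read 4.37, 4.72 and 4.64 in uninjured fibroblasts, 5.49, 5.47 and 5.82 at 7 days and 7.63, 6.80 and 6.76 at 4 weeks, rising 2.77-fold (log2 fold change 1.47 ± 0.27, adjusted p = 0.00619) in the second step from values below background. Sntg2, a syntrophin, rose 3.05-fold, a call lost without replicate 1 or 2 of 7 days or replicate 1 of 4 weeks (adjusted p up to 0.0607). Fibin rose 2.32-fold and Cited2, a transcriptional coregulator, fell 1.93-fold. The call of Fibin was lost without replicate 2 or 3 of uninjured, replicate 1 or 2 of 7 days or any array of 4 weeks (adjusted p up to 0.183), and that of Cited2 without replicate 2 or 3 of uninjured or 4 weeks or replicate 1 or 3 of 7 days (adjusted p up to 0.182).

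Other lists had few or no members that passed, where over all genes 1.57% rose and 2.79% fell. Of 24 ribosome biogenesis genes and of 21 genes of oxidative phosphorylation 0 passed in limma (medians 0.02 and -0.20), and with the arrays numbered 1 as a block 0 and 1 did. Of 23 immediate early genes 1 rose (Ier2, 4.55-fold, a call lost without replicate 2 or 3 of 4 weeks, adjusted p up to 0.0542), or 5 with the block, and the list's median was 0.70. Of 24 interferon response genes 1 rose (Irf1, 3.13-fold), or 2 with the block, and of 25 genes of the unfolded protein response and secretion Ddit3, the stress factor CHOP, rose 4.22-fold and Sec61b, of the translocon, fell 1.98-fold, both to the uninjured level (with the block 2 rose and 3 fell). Among 23 genes of glycolysis and hypoxia Adm, adrenomedullin, rose 2.82-fold and stopped short, and Pgam1, a glycolytic enzyme, fell 2.55-fold, and with the block 2 rose and 2 fell. Of 15 small leucine-rich proteoglycans Chad and Prelp rose, Prelp by 2.88-fold. Vim, the mesenchymal filament protein, read 14.63, 14.90 and 14.64 at 7 days and 14.29, 14.47 and 14.63 at 4 weeks and did not pass (adjusted p = 0.729).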

How the data were processed

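RNA of sorted EGFP+ cardiac fibroblasts was hybridised to Affymetrix Clariom S Mouse arrays, 1 array per sample. The authors deposited 1 table of gene-level log2 signals, for which the submitters' processing notes name Affymetrix Expression Console. The summarisation and normalisation methods, the version and the genome build are not given in the sources used here. The table was used as deposited. Of 28846 rows 6704 were controls, 19527 carried 1 gene symbol and 2615 stayed unnamed. For 33 genes with several rows the brightest row by its mean over all arrays was taken, which left 19494 genes. Array medians lay between 6.34 and 6.46, and the number of arrays limits the precision.

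All 14 arrays entered 1 model of group means in limma 3.58.1 (R 4.3.3), with a two-sided moderated test and Benjamini-Hochberg adjustment over 19494 genes, and a gene was called at an adjusted p under 0.05. Errors beside fold changes are standard errors, which pool the spread of all groups (9 residual degrees of freedom), and the fold is 2 to the power of the log2 difference. Deviations from the group means of same-numbered arrays of 7 days and 4 weeks correlated at 0.623, 0.29 and 0.298, and those of replicate 2 of 7 days with replicate 3 of 4 weeks at 0.421, so the fit was repeated with the arrays numbered 1, and with the numbers 1, 2 and 3, as a block. Other alternatives were the choice of groups, centring, quantile normalisation, a background filter, an intensity trend, a 2-fold minimum, the methods' t-test, ANOVA with Tukey's test and each array left out. The fit was tested on simulated data.

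Gene names followed a rule: genes shown by the study, the 12 largest rises and falls without overlap, up to 4 called members per gene list, and up to 5 genes per position. More than 5 were taken from the genes that left the uninjured level. Not all genes so picked are printed here. Further members were named after their values were seen. Members and lists were chosen with earlier results of these data known. Promoter and microRNA sequences came from RefSeq tables of GRCm38.p6.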

Additional observations from a re-analysis of the deposited data

How the results depend on the processing

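With 3 arrays a group the precision rests on a spread pooled over groups, and signals under background carry no order. The design of the labels gives no reason for the likeness of the arrays numbered 1, and the cause was not tested for any value below except where fewer arrays were fitted.

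With the arrays numbered 1 as a replicate block 1630 genes were called, 690 higher and 940 lower. Of these 105 stopped short, 988 returned, 687 of them inside 2-fold, 8 passed the uninjured level, 100 left it or moved further, and 429 differed at neither time. With the numbers 1, 2 and 3 as a replicate block there were 1558, 641 higher and 917 lower, with 99, 953, 645, 5, 93 and 408 in the same order of positions. In both, the 8 gene lists followed here kept counts within 1.5 times those of the report, and 146 of 149 named genes kept their side of the threshold while 3 passed in addition.

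Fitted on 7 days and 4 weeks alone 463 genes were called, 165 higher and 298 lower, with 14 cell cycle, 6 contractile and 6 collagen processing genes lower. With the uninjured arrays added, 28 stopped short, 1 passed, 23 left or moved further and 117 differed at neither time, and 4 contractile genes fell. Quantile normalisation gave 4 genes that passed the uninjured level. At an unadjusted p under 0.05 there were 2806 genes, 1250 higher and 1556 lower. The methods' t-test, named there for comparisons of 2 groups, gave 2229, 973 higher and 1256 lower, at their threshold, and 15, 5 higher and 10 lower, after Benjamini-Hochberg adjustment.

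With single arrays left out, 485 (replicate 2 of 4 weeks) to 970 (replicate 1 of uninjured) genes were called, 165 to 374 higher and 317 to 596 lower. From 22 to 52 stopped short, 362 to 602 returned, 113 to 348 of them inside 2-fold, 0 to 3 passed, 22 to 45 left or moved further and 70 to 336 differed at neither time. Of those stopping short there were 32 and 35 without replicates 2 and 3 of uninjured, 30 without replicate 3 of 7 days, and 23 and 22 without replicates 2 and 3 of 4 weeks. The lists kept 20 to 23 macrophage, 16 to 23 cell cycle, 3 to 14 contractile, 5 to 6 fibrillar collagen, 7 to 11 collagen processing and 6 to 8 matricellular genes lower, and 7 to 16 quiescent and 6 to 9 fatty acid genes higher. Thbs4, not called, ranged from -0.66 to 0.18, with 0.11 without replicate 2 of 7 days and 0.18 without replicate 1 of 4 weeks.

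Of 136 called genes picked by the naming rule or added later, 39 lost their call without some array, and 28 had a fold that moved by over 1.5 times. The alternatives that follow were chosen after seeing the data. ANOVA with Tukey's test is the test that the study names for the arrays. It gave 1213 genes, 478 higher and 735 lower, at a p under 0.05 per gene, and 119, 35 higher and 84 lower, after Benjamini-Hochberg adjustment. Without all arrays numbered 1, 1341 genes were called, 631 higher, with 89 stopping short, 464 inside 2-fold, 9 passing, 72 leaving or moving further and 323 at neither time, and with 18 contractile genes lower and 14 fatty acid genes higher. With the arrays low in Uty as a block 1 gene passed the uninjured level. With the macrophage marker level as a covariate 2 genes were called, 1 higher and 1 lower, of which 1 returned and 1 left or moved further, 0 stopped short, 0 passed, 0 lay inside 2-fold and 0 at neither time, and the lists had 0 called members each (903 genes at an unadjusted p under 0.05). Under it the log2 fold change turned to 1.53 for Adgre1, 1.74 for Bcl2a1b, 1.13 for Csf1r, 0.27 for Csf3r, 0.048 for Fcgr3, 0.27 for Lcp1, -0.073 for Ltbp4, 2.80 for Mmp12, 0.63 for Mmp9 and 3.72 for Mrc1, none past the threshold.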

Other observations

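The genes that left the uninjured level after 7 days were already on their way at 2 weeks. The median difference from uninjured of the 24 that left it upward began at -0.83 on the log2 scale (3 days) and went to 0.20 (7 days), 1.83 (2 weeks) and 2.35 (4 weeks). For the 33 falling genes that stopped short it was 3.65, 3.84, 3.05 and 1.94 at the same times, and for the 20 rising ones -3.04, -3.69, -2.38 and -1.81. The 3-day group has 3 arrays and the 2-week group 2. These medians describe genes chosen by their 7-day and 4-week values and were not tested.

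Several imprinted genes were among the falls. A list of 38 imprinted genes was written after Mir675, Mest and Slc38a4 had been seen, so it supports nothing and was not tested as a list. Of the 38, 6 were lower at 4 weeks than at 7 days and 0 higher in limma, against 2.79% lower and 1.57% higher over all genes, and the median of the list was -0.08. Besides those 3, the genes that fell were Igf2, a growth factor of the fetus, Plagl1, a zinc finger transcription factor, and Grb10, an adaptor that restrains growth signalling. Igf2 read 9.21, 9.26 and 9.75 at 7 days and 7.13, 7.93 and 7.75 at 4 weeks (adjusted p = 0.038) and lost its call when any array of 7 days or 4 weeks was left out (adjusted p up to 0.153). Plagl1 read 10.36, 8.26 and 10.48 at 7 days and 7.13, 7.23 and 6.79 at 4 weeks, and 7.93, 7.95 and 7.75 in uninjured fibroblasts, and replicate 2 of 7 days lay near the uninjured level. It fell 6.26-fold (adjusted p = 0.0107), or 10.3-fold without replicate 2 of 7 days, a call lost without replicate 3 of 7 days (adjusted p = 0.06). Grb10 read 13.17, 14.03 and 14.08 at 7 days and 12.15, 12.17 and 12.39 at 4 weeks, and 11.86, 12.003 and 12.34 in uninjured fibroblasts, and fell 2.88-fold (adjusted p = 0.00222). At 4 weeks 3 of the 38 were lower than in uninjured fibroblasts.

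Of 29 collagens outside the fibrillar group 3 were lower (10.3%, against 2.79% over all genes) and 1 higher (3.45%, against 1.57%), with a median of -0.20. Col6a3, Col16a1 and Col18a1 fell, and their calls were lost in 6, 6 and 7 of the limma fits with 1 array left out (adjusted p up to 0.131, 0.1195 and 0.194). With the arrays numbered 1 as a block 7 were lower. The gene that rose was Col4a3, a chain of specialised basement membranes, which read 7.12, 7.14 and 7.31 at 7 days and 9.29, 9.33 and 9.06 at 4 weeks (adjusted p = 0.00185).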
